A study of Saccharomyces cerevisiae with 8 samples.

Results

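The genes described here are 45 enzymes of amino acid synthesis in *S. cerevisiae* and GCN4, the gene of the activator that controls many of them. They were taken by identifier from a list of arginine, histidine, branched-chain, lysine, aromatic, threonine and serine synthesis genes, which holds no methionine genes, and the list makes up 46 of the 7126 genes in the count tables. The list has 5 arginine, 5 histidine, 11 branched-chain, 7 lysine, 9 aromatic, 5 threonine and 3 serine genes. All 46 passed the filter on low counts and belong to the 5778 genes tested.

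RNA was sequenced from 8 yeast cultures, 2 for each of 4 groups, to ask how a strain that overproduces the polyphosphatase Ppn1 answers manganese excess. Strain CRN/PPN1 carries the vector pMB1/PPN1 Sc in the background of strain CRN, and both strains are MATa ade2 his3 ura3 ppn1delta::CgTRP1, so that the chromosomal PPN1 is deleted in both, although the genotype label of CRN reads wild type. The CRN/PPN1 manganese group was grown for 16 h and the CRN manganese group for 40 h in YPD with 5 mM MnSO4, whereas both control groups were grown for 12 h in YPD without added MnSO4. YPD held 14 mM KH2PO4, 1% yeast extract, and 2% each of peptone and glucose, and it therefore supplied amino acids to every culture. Time of growth and medium cannot be told apart where manganese is compared with control within a strain. Between the strains in manganese, time of growth and strain cannot be told apart. Each library pools all cells of a culture, so a change in every cell and a change in some of the cells cannot be told apart either. The counts of PPN1 were 22035 and 25525 in CRN/PPN1 with manganese, 7216 and 7027 in CRN/PPN1 controls, 39 and 3 in CRN with manganese, and 9 and 7 in CRN controls, as the strain labels say.

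Yeast makes its amino acids from intermediates of glycolysis, the citric acid cycle and the pentose phosphate pathway, and ammonia enters mostly through glutamate and glutamine. Many of the enzyme genes are bound by Gcn4, a bZIP protein that recognises the palindrome-like motif TGACTCA and activates its targets across pathways when amino acids are short, a response called general amino acid control. The GCN4 mRNA is always made, and upstream reading frames in its leader hold back its translation in fed cells, so that the mRNA level is not a measure of the protein.

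The Gcn4 motif was searched on both strands of the 400 bases before each start codon in the RefSeq R64 reference genome, that is as TGACTCA or its reverse complement TGAGTCA. It was present before 24 of the 46 genes (52.2%) and before 203 of 6020 promoters in all (3.4%). The shorter core TGACTC, which every TGACTCA contains, was present before 32 of the 46 (69.6%) and 620 of 6020 (10.3%). All 5 arginine genes, 4 of 5 histidine genes, 7 of 11 branched-chain genes, 4 of 9 aromatic genes, 2 of 7 lysine genes, 2 of 5 threonine genes and 0 of 3 serine genes held TGACTCA, and GCN4 did not. The stretches below are from those genes whose changes lead the comparisons and that hold the motif. They are written on the strand of the gene, 5′ to 3′, with the motif in capitals, and they are reference sequence, not that of the strains. They lie at chrXV:218846-218892 (ARG1, plus strand), chrX:268465-268511 (ARG3, plus), chrV:265943-265989 (HIS1, minus), chrXV:522750-522796 (LEU9, plus), chrXII:839538-839584 and chrXII:839367-839413 (ILV5, minus) and chrIV:770153-770199 (HOM2, plus). The motif ends 339 bases before the start codon in ARG1, 308 in ARG3, 178 in HIS1, 251 in LEU9, 305 and 134 in ILV5, and 178 in HOM2.
ARG1: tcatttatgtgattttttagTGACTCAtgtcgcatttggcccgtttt
ARG3: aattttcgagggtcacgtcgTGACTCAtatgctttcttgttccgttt
HIS1: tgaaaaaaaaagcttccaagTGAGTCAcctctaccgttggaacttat
LEU9: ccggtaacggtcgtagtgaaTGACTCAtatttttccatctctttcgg
ILV5 upstream site: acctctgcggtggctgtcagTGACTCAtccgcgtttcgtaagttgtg
ILV5 downstream site: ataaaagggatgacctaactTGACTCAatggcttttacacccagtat
HOM2: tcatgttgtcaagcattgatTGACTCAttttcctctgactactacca
A match describes the letters only. ILV5 was alone among the 46 in having the motif at 2 places.

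The libraries held 2309776 to 3579469 counts in genes. Levels are given below as CPM, counts scaled by library size, after TMM normalization, which rescales the libraries so that most genes keep their level, and the TMM factors ranged from 0.508 to 1.63. Shares of genes of short coding length refer to the counts in tested genes with a known coding length. Short genes took 33.8% and 34.9% of these in CRN/PPN1 with manganese, 66.6% and 64.8% in CRN/PPN1 controls, 16.5% and 18.8% in CRN with manganese, and 78.2% and 71.8% in CRN controls. Here short means the lowest quintile of coding lengths (78 to 648 bp). Without rescaling, the 46 genes together took 1.60% and 1.55% of the gene counts in CRN/PPN1 in manganese, 0.826% and 0.852% in CRN/PPN1 in control medium, 1.02% in both CRN manganese libraries, and 0.460% and 0.671% in CRN in control medium. None of the 46 is in the lowest quintile of coding lengths, and 6, 24, 11 and 5 of them are in the next quintiles from short to long. A gene was called where the adjusted p of edgeR's quasi-likelihood test was at most 0.05 and the log2 fold change at least 1 in size. P-values rest on the spread between the 2 cultures of a group, pooled over the 4 groups and moderated by the spread of other genes. The methods name simultaneous cultivations as the source of the replicates, so spread between experiments done at different times may not be included.

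**Figure D1:**
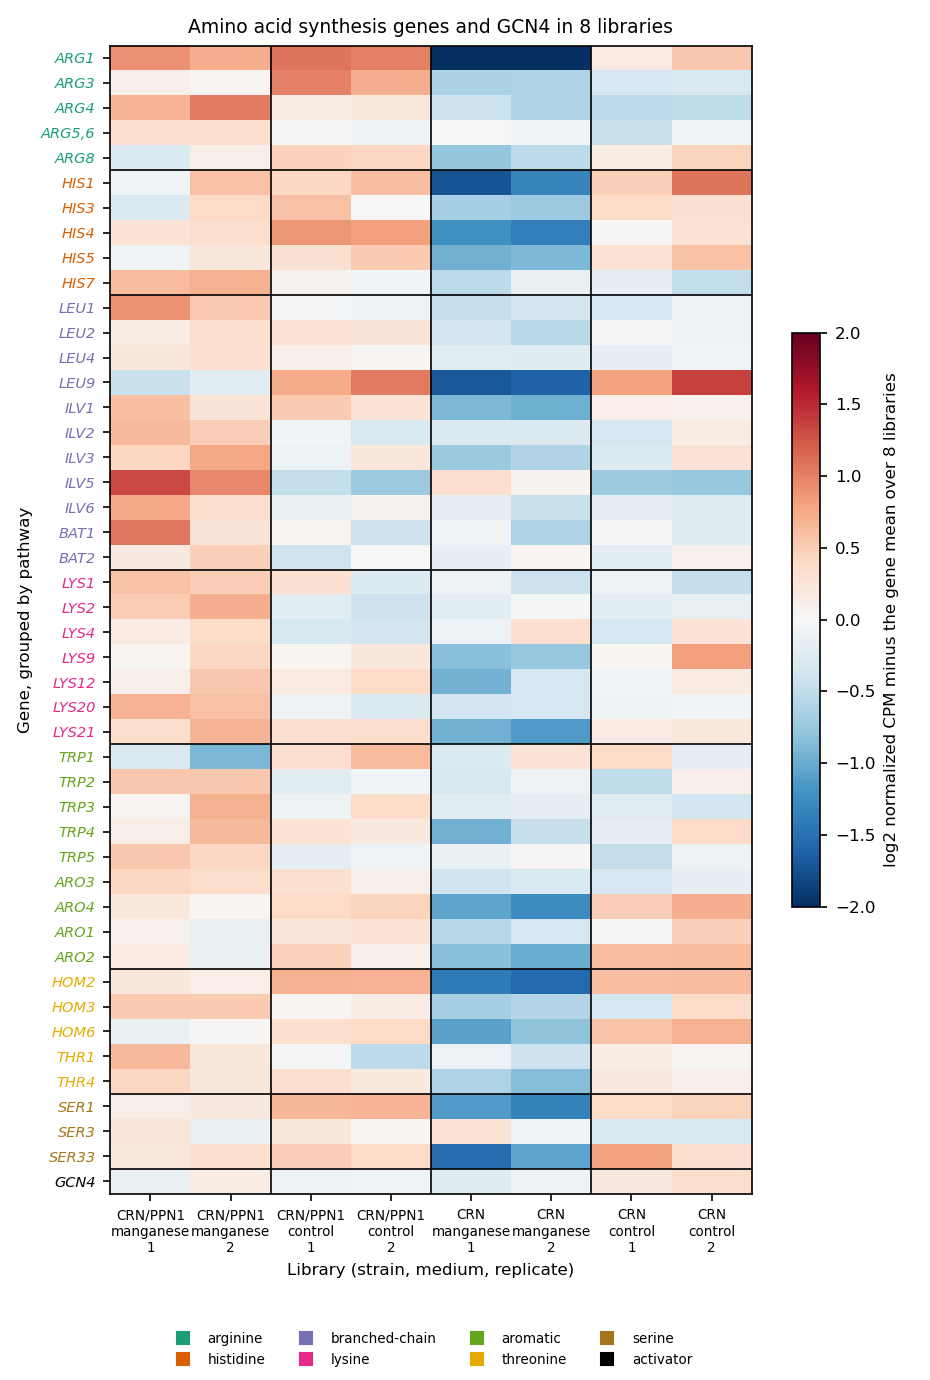
Each cell is the log2 normalized CPM of a gene (row, grouped by pathway) in a library (column) minus that gene's mean over the 8 libraries. On this TMM scale the CRN manganese columns are blue for most genes, darkest for ARG1, HIS1 and LEU9, whereas ILV5 is highest in CRN/PPN1 in manganese.

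Amino acid synthesis genes were lower in manganese than in control medium in CRN relative to other genes, while the sign of many single values flips when libraries are scaled to their total alone. Of the 46 genes, 15 fell and 0 rose, where 24.0% of all tested genes were called down and 24.7% up. The genes that fell were ARG1, HIS1, HIS3, HIS4, HIS5, LEU9, ILV1, LYS9, LYS21, ARO4, ARO2, HOM2, HOM6, SER1 and SER33, and they come from each of the 7 pathways. The median log2 fold change of the 46 was −0.42, against 0.09 over all tested genes. Both manganese libraries were below both control libraries for 29 of the 46 genes and above them for 4, while this held for 39.7% and 44.3% of all tested genes. Among the histidine genes 4 of 5 fell, and among the serine genes 2 of 3, against 1 of 5 arginine, 2 of 11 branched-chain, 2 of 7 lysine, 2 of 9 aromatic and 2 of 5 threonine genes. Scaled to the library total, the median over all genes moved to 1.57, and 24 of the 46 were called up and 2, ARG1 and LEU9, down, where 63.7% and 10.5% of all tested genes were. The median of the 46 stood 0.51 below that of all genes under both scalings. This had to be so, because the change of scaling adds about the same amount to every gene.

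In CRN/PPN1, 3 of these genes were called in manganese. ILV5 rose, and LEU9 and TRP1 fell, so that 1 of 46 was called up and 2 down, where 10.1% and 15.1% of all tested genes were called. The median of the 46 was 0.13, against 0.01 over all tested genes. By the adjusted p alone, without the limit on size, 13 genes were higher and 6 lower (18.4% and 20.7% of all tested genes), and 5 of the 13 were branched-chain genes and 3 were lysine genes. The groups did not overlap with manganese higher for 20 genes, and with manganese lower for 13 (34.8% and 35.2% of all tested genes). Scaled to the library total, the median over all genes moved to 0.68, and 18 were called up and 0 down, against 32.4% and 6.99% of all tested genes. LEU9 was the only gene of the 46 that was called down in both strains, and these 2 comparisons share no libraries.

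In control medium a single gene of the list was called between the strains. This was ARG3, higher in CRN/PPN1 than in CRN, where 4.45% of all tested genes were called up and 4.45% down. By the adjusted p alone, 4 genes were higher in CRN/PPN1 and 0 lower (6.52% and 8.88% of all tested genes), and the 4 were ARG1, ARG3, ARG4 and HIS4. The median of the 46 was 0.11, against −0.01 over all tested genes. The 2 CRN/PPN1 libraries lay above both CRN libraries for 18 genes and below them for 6, as they did for 28.2% and 29.6% of all tested genes.

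In manganese the synthesis genes were higher in CRN/PPN1 than in CRN, and this held for nearly the whole list. Of the 46 genes 20 rose and 0 fell, where 10.4% of all tested genes were called up and 7.37% down. The median was 0.93, against −0.01 over all tested genes, and 44 of the 46 values were above 0. Both CRN/PPN1 libraries were above both CRN libraries for 42 genes and below them for TRP1, against 31.7% and 33.1% of all tested genes. LYS4, SER3 and GCN4 overlapped between the strains. Each of the 7 pathways had calls, with 2 of 5 arginine, 3 of 5 histidine, 5 of 11 branched-chain, 3 of 7 lysine, 2 of 9 aromatic, 3 of 5 threonine and 2 of 3 serine genes called up. Scaled to the library total, the median over all genes moved to −0.32. There 10 of the 46 were called up and 0 down, beside 6.78% and 15.2% of all tested genes. The median of the 46 was 0.93 above that of all genes, a difference that this change of scaling cannot alter by much.

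The interaction of strain and medium, which is the log2 effect of manganese in CRN/PPN1 minus that in CRN, was called up for 18 of the 46 genes and down for 0, where 15.0% of all tested genes were called up and 11.6% down. Its median was 0.89, against −0.02 over all tested genes. Threonine genes were called in 4 of 5 cases and arginine genes in 1 of 5. Scaled to the library total, the median over all genes moved to −0.84, and 2 were called up and 3 down, as were 6.33% and 37.2% of all tested genes. The manganese comparison in CRN, the strain comparison in manganese and the interaction all use the 2 CRN manganese libraries, so their values are not independent of each other.

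**Figure D2:**
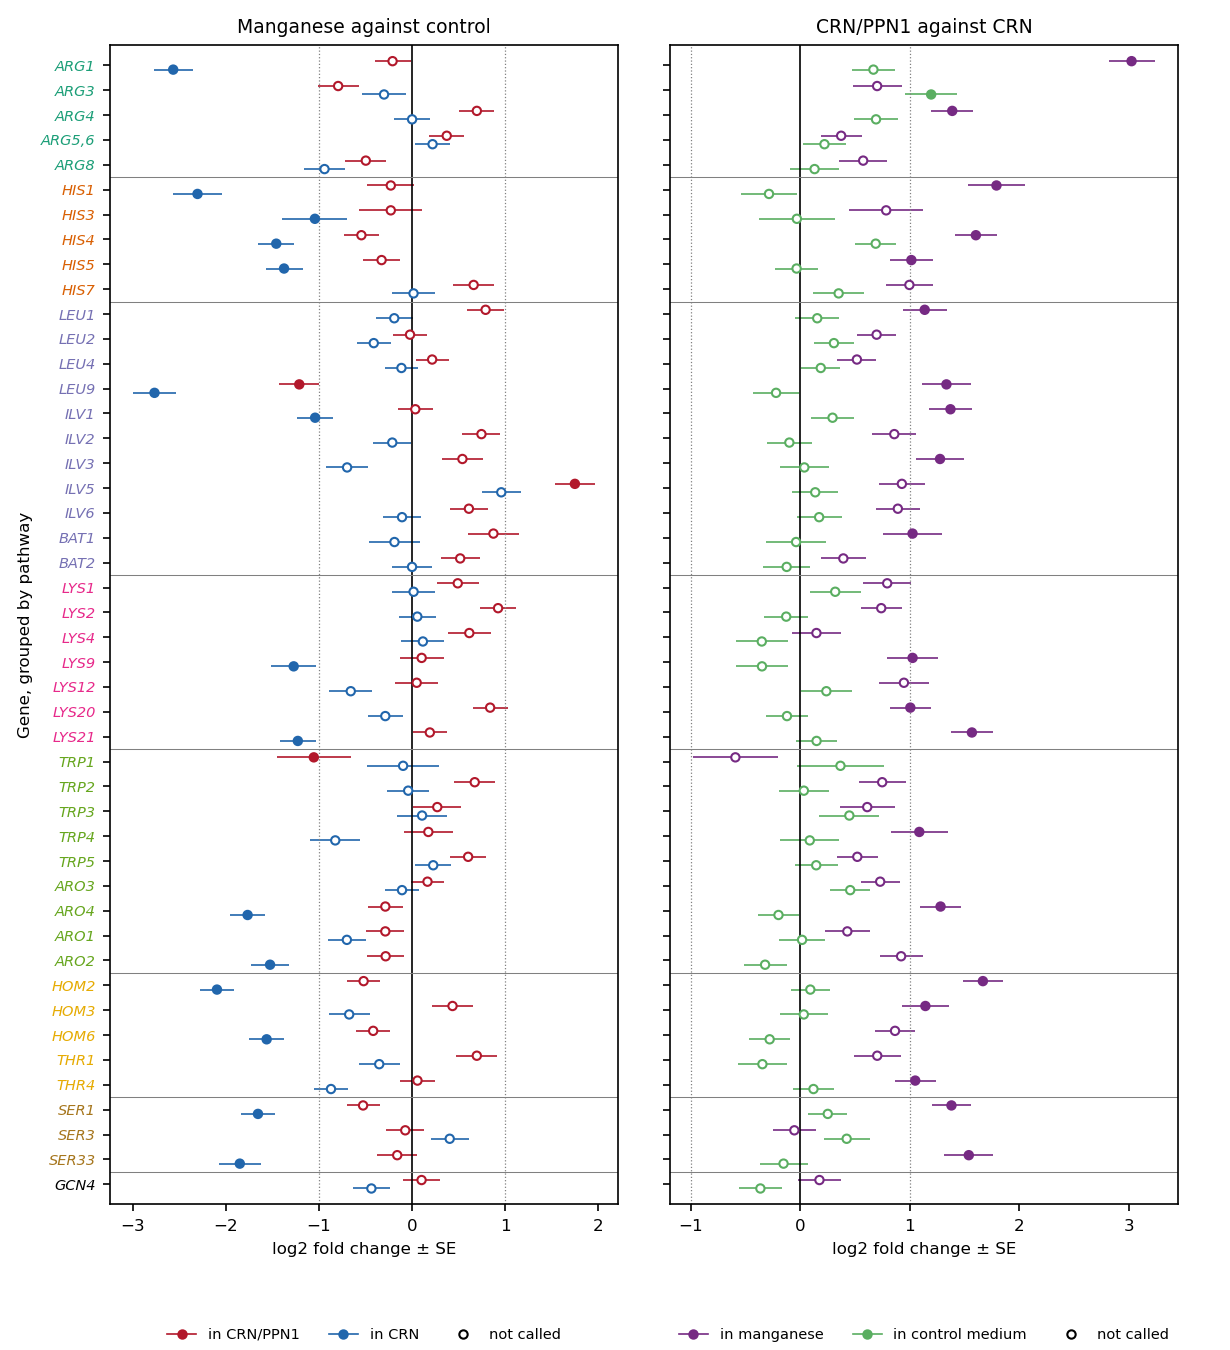
Each point is the log2 fold change of a gene with its SE, for manganese against control in each strain (left) and for CRN/PPN1 against CRN in each medium (right). Filled points were called and open points were not, and dotted lines mark a log2 fold change of 1 in size. The manganese points of CRN lie left of those of CRN/PPN1 for 43 of 46 genes, and on the right the points for manganese lie above 0 for 44 of 46 genes.

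The values also vary with coding length over all genes, and the 46 genes were set beside genes of like length. In the middle quintile of lengths, which holds 24 of the 46, the median over all genes was 0.27 for manganese in CRN, 0.17 for manganese in CRN/PPN1, 0.09 for the strains in control medium, −0.01 for the strains in manganese and −0.11 for the interaction. In the next longer quintile, with 11 of the 46, these medians were 0.61, 0.27, 0.14, −0.20 and −0.33. The medians of the 46, given above, lay below those of both quintiles for manganese in CRN and above them for the strains in manganese and for the interaction. For manganese in CRN/PPN1 the median of the 46, 0.13, also lay below both. For the strains in control medium it was 0.11, between them. With the length trend of each library removed, 20 of the 46 were called down in manganese in CRN (18.9% of all tested genes), 23 up between the strains in manganese (6.47%) and 24 up in the interaction (10.2%).

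**Figure D3:**
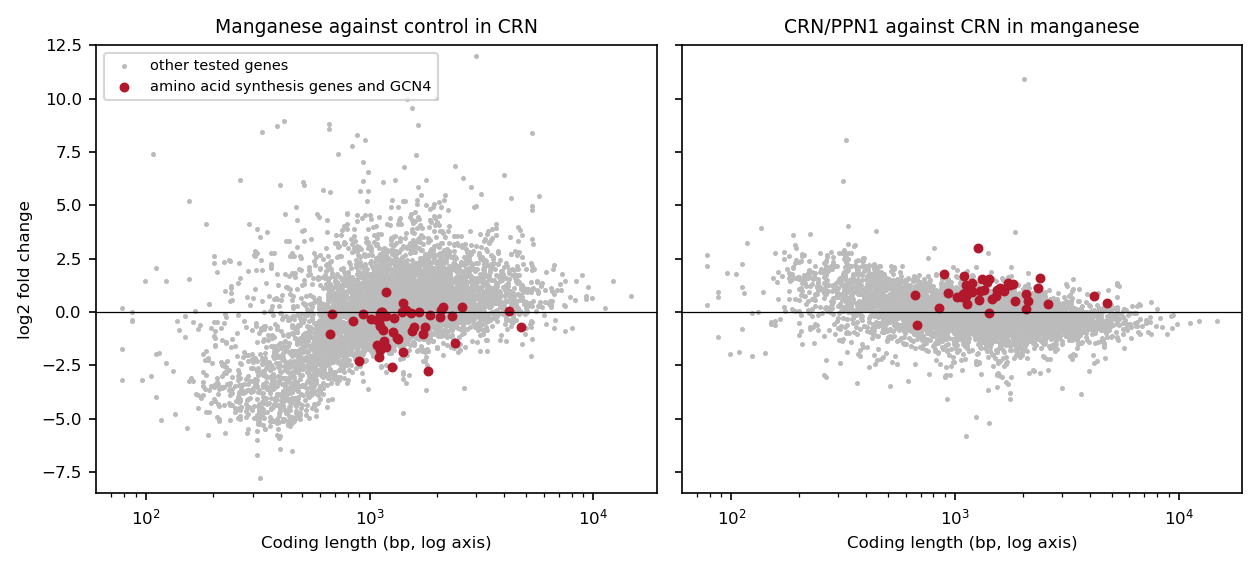
The log2 fold change of each tested gene with a known coding length is plotted against that length (bp, log axis), with the 46 genes in red and the other genes in grey. For manganese in CRN (left) the grey cloud climbs with length, whose medians run from −2.29 in the shortest quintile to 0.73 in the longest, and the red points sit in its lower part. For CRN/PPN1 against CRN in manganese (right) the medians run from 0.59 to −0.32, and 44 of the 46 red points are above 0.

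The arginine genes held the strongest contrast of the list. ARG1 (YOL058W), argininosuccinate synthetase, had 549 and 477 CPM in CRN/PPN1 with manganese, 606 and 582 CPM in CRN/PPN1 controls, 60.3 and 65.5 CPM in CRN with manganese, and 326 and 420 CPM in CRN controls. The CRN manganese libraries were far below all other libraries, and those of CRN/PPN1 were above those of CRN in both media. In manganese, ARG1 was higher in CRN/PPN1 than in CRN by 3.03 ± 0.21 (log2 fold change ± SE, adjusted p = 3.79e-07), the largest rise of the list. It fell by 2.57 ± 0.21 in manganese in CRN (adjusted p = 4.06e-08), and its value in manganese in CRN/PPN1 was −0.21 ± 0.19 (adjusted p = 0.413). The interaction was 2.36 ± 0.28 (adjusted p = 4.35e-05). Reads on the other strand of ARG1, which are not in these counts, made up 35.3% and 32.7% of its reads in CRN in manganese. In CRN in control medium they made up 0.753% and 0.134%. The fall of ARG1 was also called with counts on either strand, and beyond this the part of these reads was not tested.

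ARG3 (YJL088W), ornithine carbamoyltransferase, which makes the citrulline that Arg1 uses, had 48.9 and 47.7 CPM in CRN/PPN1 with manganese, 92.2 and 75.3 CPM in CRN/PPN1 controls, 29.6 and 29.7 CPM in CRN with manganese, and 35.9 and 37.1 CPM in CRN controls. It was highest in CRN/PPN1 in control medium, with no overlap with any other group. It was higher in CRN/PPN1 than in CRN in control medium by 1.20 ± 0.23 (adjusted p = 0.00300). Without the CRN/PPN1 control library 1 this was 1.05 with an adjusted p of 0.0503, so that the call rests on that library. ARG4, argininosuccinate lyase, the last enzyme of the pathway, was higher in CRN/PPN1 than in CRN in manganese by 1.39. ARG5,6 and ARG8, for mitochondrial enzymes of the acetylated steps before ornithine, were called in no comparison, with values of 0.38 and 0.58 between the strains in manganese.

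On the TMM scale the histidine genes were low in CRN in manganese with the exception of HIS7. Scaled to the library total, HIS1, HIS3, HIS4 and HIS5 had values of −0.85, 0.45, 0.010 and 0.095 there, and none of these was called. HIS1 (YER055C), for the ATP phosphoribosyltransferase that opens the pathway and is inhibited by histidine, had 154 and 246 CPM in CRN/PPN1 with manganese, 219 and 250 CPM in CRN/PPN1 controls, 49.6 and 65.7 CPM in CRN with manganese, and 227 and 343 CPM in CRN controls. The CRN manganese libraries stood below all 6 others, which overlapped. HIS1 was higher by 1.79 ± 0.26 in CRN/PPN1 than in CRN in manganese (adjusted p = 0.000129), it fell by 2.31 ± 0.26 in manganese in CRN (adjusted p = 1.90e-06), and the interaction was 2.08 ± 0.36 (adjusted p = 0.000529). Reads on its other strand made up 27.1% and 25.9% of HIS1 reads in CRN in manganese, against 0% and 0.326% in CRN in control medium. HIS4, a trifunctional enzyme, and HIS5, histidinol-phosphate aminotransferase, fell by 1.46 and 1.38 in manganese in CRN and were higher in CRN/PPN1 than in CRN in manganese by 1.61 and 1.02. HIS4 had 404 and 421 CPM in CRN/PPN1 in manganese and 143 and 128 CPM in CRN in manganese. HIS7, imidazole glycerol phosphate synthase, had a value of 0.02 in manganese in CRN and of 1.00 between the strains in manganese, just under the limit.

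HIS3 (YOR202W), imidazoleglycerol-phosphate dehydratase, is mutated in both strains (his3) and was among the weakest genes of the list. It had 20.4 and 32.9 CPM in CRN/PPN1 with manganese, 37.5 and 24.8 CPM in CRN/PPN1 controls, 15.8 and 15.1 CPM in CRN with manganese, and 32.8 and 30.9 CPM in CRN controls. The CRN manganese libraries were the lowest and the other groups overlapped. HIS3 fell by 1.04 ± 0.35 in manganese in CRN (adjusted p = 0.0163), and between the strains in manganese its value was 0.79 ± 0.34 (adjusted p = 0.0908). The fall was not called in 7 of 16 alternatives, among them those without any one of the 4 CRN libraries, and it was 0.070 with the length trend removed. Reads on the other strand made up 13.2% to 25.4% of the HIS3 reads over the 8 libraries, and their part in these values was not tested.

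The branched-chain genes gave both the gene that fell most and the only one that rose in manganese. LEU9 (YOR108W), for a lesser isozyme of alpha-isopropylmalate synthase, which commits carbon to leucine, had 91.3 and 107 CPM in CRN/PPN1 with manganese, 208 and 253 CPM in CRN/PPN1 controls, 38.3 and 40.3 CPM in CRN with manganese, and 217 and 319 CPM in CRN controls. It was low in manganese in both strains and lowest in CRN, and the control groups overlapped. LEU9 fell by 2.77 ± 0.23 in manganese in CRN (adjusted p = 4.66e-08) and by 1.21 ± 0.22 in manganese in CRN/PPN1 (adjusted p = 0.000401). The interaction was 1.56 ± 0.31 (adjusted p = 0.00134). With counts on either strand the value in CRN/PPN1 was −0.33 and not called. The other strand of LEU9 held only 7 and 9 counts in CRN/PPN1 with manganese and 8 and 9 in CRN/PPN1 controls. The reason for the different value was not tested.

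ILV5 (YLR355C), acetohydroxyacid reductoisomerase, a mitochondrial enzyme shared by the isoleucine and valine branches, had 1435 and 1117 CPM in CRN/PPN1 with manganese, 413 and 346 CPM in CRN/PPN1 controls, 733 and 607 CPM in CRN with manganese, and 351 and 339 CPM in CRN controls. It was highest in both manganese groups without overlap, and the control groups overlapped. ILV5 rose by 1.75 ± 0.21 in manganese in CRN/PPN1 (adjusted p = 1.70e-05). In CRN the value was 0.96 ± 0.21 (adjusted p = 0.000976), under the limit on size, and the interaction was 0.79 ± 0.29 (adjusted p = 0.0539). Other mitochondrial steps include ILV2 and ILV6, the catalytic and regulatory subunits of acetolactate synthase, and ILV3, dihydroxyacid dehydratase. Their values in manganese in CRN/PPN1 were 0.75, 0.61 and 0.54, and in CRN −0.21, −0.11 and −0.70. Of these, ILV3 was called between the strains in manganese, at 1.28.

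Of the remaining genes of this group, ILV1, threonine deaminase, which opens isoleucine synthesis, fell by 1.04 in manganese in CRN (0.45 when scaled to the library total) and was higher in CRN/PPN1 than in CRN in manganese by 1.37. LEU1, isopropylmalate isomerase, was higher in CRN/PPN1 than in CRN in manganese by 1.14, with 915 and 710 CPM against 358 and 380 CPM in CRN. LEU2 (YCL018W), beta-isopropylmalate dehydrogenase, is no marker in the genotype given, but the selection marker of the vector in CRN/PPN1 is not stated. Whether the vector adds LEU2 reads was not tested. LEU2 had 234 and 263 CPM in CRN/PPN1 with manganese, 255 and 250 CPM in CRN/PPN1 controls, 162 and 144 CPM in CRN with manganese, and 212 and 195 CPM in CRN controls. It was thus present in all 8 libraries, higher in CRN/PPN1 than in CRN in both media without overlap, and called in no comparison. Its largest value was 0.70 ± 0.18, between the strains in manganese (adjusted p = 0.00812).

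Isozymes of the same step differed in which of them was called. The main alpha-isopropylmalate synthase gene LEU4 (YNL104C) had 391 and 421 CPM in CRN/PPN1 in manganese, 358 and 342 CPM in CRN/PPN1 in control medium, 283 CPM in both CRN manganese libraries, and 297 and 316 CPM in CRN in control medium, and was called in no comparison. The ratio of LEU9 to LEU4 counts, which no scaling of the libraries can change, was 0.234 and 0.255 in CRN/PPN1 with manganese, 0.581 and 0.741 in CRN/PPN1 controls, 0.135 and 0.142 in CRN with manganese, and 0.731 and 1.01 in CRN controls. Manganese libraries were below control libraries in both strains without overlap. The coding sequences of the pair are identical at 81.2% of aligned bases, and over 99% of the 36-base windows of each are unique in the genome. The differences between isozymes were not tested.

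BAT1 (YHR208W) and BAT2 (YJR148W) encode the mitochondrial and cytosolic branched-chain aminotransferases. BAT1 had 919 and 525 CPM in CRN/PPN1 with manganese, 457 and 330 CPM in CRN/PPN1 controls, 419 and 289 CPM in CRN with manganese, and 436 and 373 CPM in CRN controls, and the libraries of a group were far apart. BAT1 was higher in CRN/PPN1 than in CRN in manganese by 1.03 ± 0.27 (adjusted p = 0.00932), and this was not called without CRN manganese library 2, at 0.79, or without CRN/PPN1 manganese library 1, at 0.59. BAT2 had 138 and 170 CPM in CRN/PPN1 with manganese, 92.6 and 123 CPM in CRN/PPN1 controls, 109 and 125 CPM in CRN with manganese, and 105 and 130 CPM in CRN controls. It was called in no comparison. The ratio of BAT1 to BAT2 lay between 2.31 and 6.65 and overlapped among all 4 groups.

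**Figure D4:**
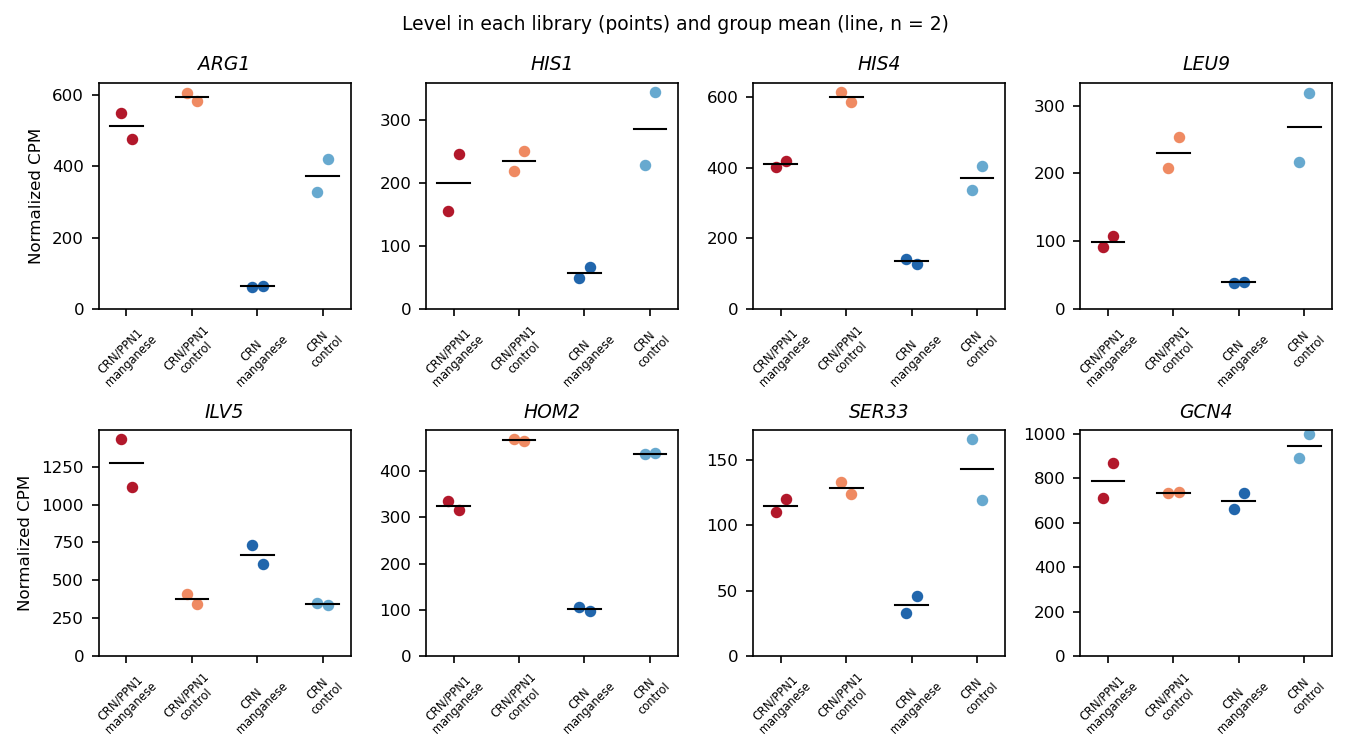
Normalized CPM of 8 genes in each library (points) with the group mean (line, n = 2), each panel on its own axis from 0. ARG1, HIS1, HIS4, LEU9, HOM2 and SER33 have their lowest libraries in CRN in manganese, ILV5 is highest in CRN/PPN1 in manganese at 1435 and 1117 CPM, and GCN4 stays between 662 and 998 CPM.

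Lysine is made in yeast from homocitrate through alpha-aminoadipate. The homocitrate synthase genes LYS20 (YDL182W) and LYS21 (YDL131W) differed in manganese. LYS21 had 196 and 248 CPM in CRN/PPN1 with manganese, 192 and 198 CPM in CRN/PPN1 controls, 79.2 and 70.6 CPM in CRN with manganese, and 173 and 178 CPM in CRN controls. LYS20 had 149 and 139 CPM in CRN/PPN1 with manganese, 85.7 and 75.3 CPM in CRN/PPN1 controls, 71.2 and 72.0 CPM in CRN with manganese, and 86.1 and 88.8 CPM in CRN controls. LYS21 was low in CRN in manganese and LYS20 high in CRN/PPN1 in manganese. LYS21 fell by 1.23 ± 0.19 in manganese in CRN (adjusted p = 4.46e-05, and 0.26 when scaled to the library total), where the value of LYS20 was −0.29 ± 0.19 (adjusted p = 0.197). In manganese in CRN/PPN1 the value of LYS20 was 0.84 ± 0.19 (adjusted p = 0.00245) and that of LYS21 was 0.19 ± 0.19 (adjusted p = 0.442). Both were higher in CRN/PPN1 than in CRN in manganese, by 1.57 for LYS21 and 1.01 for LYS20.

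The ratio of LYS21 to LYS20 counts was 1.32 and 1.78 in CRN/PPN1 with manganese, 2.24 and 2.62 in CRN/PPN1 controls, 1.11 and 0.981 in CRN with manganese, and 2.01 and 2.00 in CRN controls. Manganese libraries were lower in both strains. These 2 genes are identical at 91.9% of aligned bases, and 57.5% of the 36-base windows of LYS21 and 56.3% of those of LYS20 are unique. Reads from the rest could map to both and were then not counted, so that their levels are uncertain. Of the other lysine genes, LYS9, the saccharopine dehydrogenase that forms saccharopine from glutamate, fell by 1.27 in manganese in CRN (0.17 when scaled to the library total) and was higher by 1.03 in CRN/PPN1 than in CRN in manganese. Without CRN control library 2 the fall of LYS9 was 0.83, and without CRN/PPN1 manganese library 2 its strain value was 0.85, and neither was called. LYS2, alpha-aminoadipate reductase, had values of 0.06 in manganese in CRN and 0.92 in CRN/PPN1, and LYS1, LYS4 and LYS12 were called in no comparison.

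The aromatic genes split between the common trunk, which leads to chorismate, and the tryptophan branch. Of the trunk, ARO4 and ARO2 fell in CRN in manganese and ARO3 and ARO1 did not pass. ARO4 (YBR249C), the DAHP synthase inhibited by tyrosine, had 345 and 305 CPM in CRN/PPN1 with manganese, 390 and 403 CPM in CRN/PPN1 controls, 142 and 125 CPM in CRN with manganese, and 419 and 489 CPM in CRN controls. ARO3 (YDR035W), the DAHP synthase inhibited by phenylalanine, had 241 and 233 CPM in CRN/PPN1 with manganese, 227 and 196 CPM in CRN/PPN1 controls, 138 and 147 CPM in CRN with manganese, and 144 and 163 CPM in CRN controls. ARO4 was lowest in CRN in manganese, whereas ARO3 was higher in CRN/PPN1 than in CRN in both media and overlapped between the media in CRN. ARO4 fell by 1.77 ± 0.19 in manganese in CRN (adjusted p = 1.06e-06), against a value of −0.11 ± 0.18 for ARO3 (adjusted p = 0.619). The ratio of ARO4 to ARO3 was 1.43 and 1.31 in CRN/PPN1 with manganese, 1.72 and 2.06 in CRN/PPN1 controls, 1.03 and 0.849 in CRN with manganese, and 2.91 and 3.0 in CRN controls, and it was lower in manganese in both strains without overlap. ARO2, chorismate synthase, fell by 1.53 in manganese in CRN, and ARO1, the pentafunctional trunk enzyme, had a value of −0.70 there. Scaled to the library total, ARO4 was −0.30 and ARO2 −0.042 in manganese in CRN, and neither was called.

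In the tryptophan branch, TRP4, anthranilate phosphoribosyltransferase, was higher in CRN/PPN1 than in CRN in manganese by 1.09. The call of TRP4 was lost in 4 of 16 alternatives, at 0.88 without CRN manganese library 1, 0.81 without CRN/PPN1 manganese library 2, 0.88 with counts on either strand and 0.78 scaled to the library total. TRP2, TRP3 and TRP5, for both subunits of anthranilate synthase and for tryptophan synthase, had values of 0.75, 0.61 and 0.52 and were not called. TRP1 (YDR007W), phosphoribosylanthranilate isomerase, was the only gene of the list lower in CRN/PPN1 than in CRN in manganese without overlap, with a value of −0.59 that was not called. It had 15.5 and 10.2 CPM in CRN/PPN1 with manganese, 24.1 and 29.6 CPM in CRN/PPN1 controls, 15.8 and 23.0 CPM in CRN with manganese, and 24.8 and 16.9 CPM in CRN controls. CRN/PPN1 in manganese held the lowest libraries, and the CRN groups overlapped. TRP1 fell by 1.06 ± 0.39 in manganese in CRN/PPN1 (adjusted p = 0.0455), a call lost in 10 of 16 alternatives. Both strains carry the *Candida glabrata* TRP1 gene as the marker of the PPN1 deletion. TRP1 had 30 to 134 counts per library, and reads on its other strand made up 10% to 52.4% of its reads, whose part in these values was not tested.

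**Figure D5:**
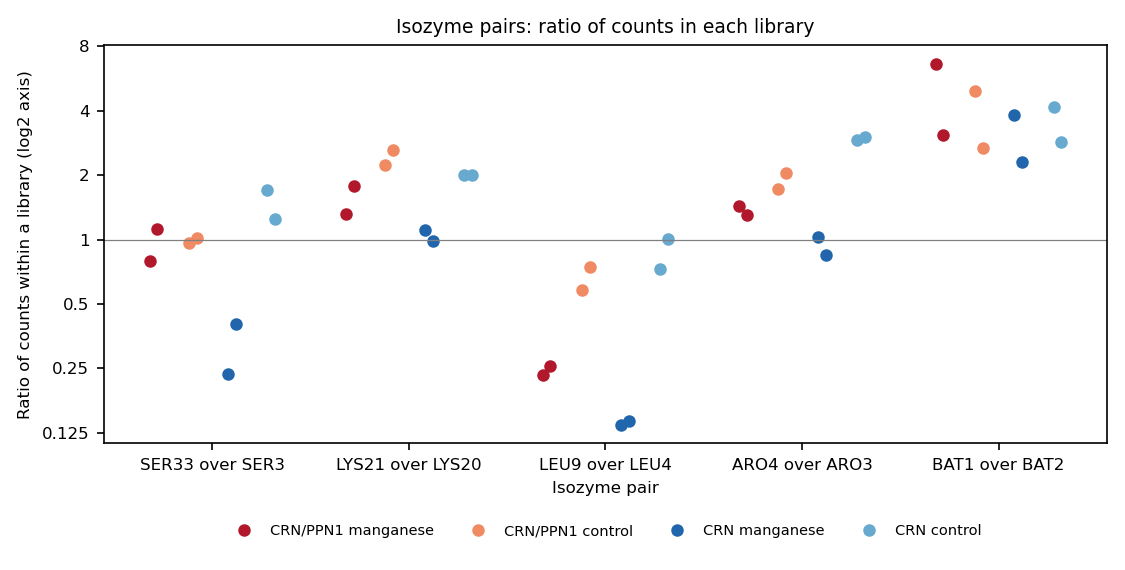
The ratio of the counts of both isozymes of a step is shown for each library on a log2 axis, with the groups of a pair from left to right as CRN/PPN1 manganese, CRN/PPN1 control, CRN manganese and CRN control. For LYS21 over LYS20, LEU9 over LEU4 and ARO4 over ARO3 the manganese points are below the control points of the same strain, the lowest being 0.135 for LEU9 over LEU4 in CRN in manganese, and the points of BAT1 over BAT2 overlap.

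Threonine is made from aspartate through homoserine, which also feeds methionine and isoleucine. All 5 genes were higher in CRN/PPN1 than in CRN in manganese without overlap, and HOM2, HOM3 and THR4 were called. HOM2 (YDR158W), aspartic beta-semialdehyde dehydrogenase, had 335 and 316 CPM in CRN/PPN1 with manganese, 470 and 465 CPM in CRN/PPN1 controls, 107 and 97.4 CPM in CRN with manganese, and 436 and 439 CPM in CRN controls. The strains were close in control medium, both were lower in manganese, and CRN fell further. HOM2 was higher by 1.67 ± 0.18 in CRN/PPN1 than in CRN in manganese (adjusted p = 2.12e-05), and it fell by 2.10 ± 0.19 in manganese in CRN (adjusted p = 1.10e-07). In CRN/PPN1 the value was −0.52 ± 0.18 (adjusted p = 0.0301), under the limit on size. The interaction was 1.58 ± 0.25 (adjusted p = 0.000291). HOM6, homoserine dehydrogenase, fell by 1.56 in manganese in CRN. Scaled to the library total, HOM2 was −0.61 and HOM6 −0.083 in manganese in CRN, and neither was called. HOM3, aspartate kinase, the entry enzyme of the pathway, and THR4, threonine synthase, were higher in CRN/PPN1 than in CRN in manganese by 1.14 and 1.05. THR1, homoserine kinase, had a value of 0.70 between the strains in manganese.

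Serine is made from 3-phosphoglycerate. SER33 (YIL074C), among 2 genes for the dehydrogenase that opens the pathway, had 110 and 120 CPM in CRN/PPN1 with manganese, 133 and 124 CPM in CRN/PPN1 controls, 33.3 and 45.6 CPM in CRN with manganese, and 166 and 120 CPM in CRN controls. SER3 (YER081W), the other, had 139 and 107 CPM in CRN/PPN1 with manganese, 138 and 121 CPM in CRN/PPN1 controls, 142 and 113 CPM in CRN with manganese, and 97.3 and 95.5 CPM in CRN controls. SER33 was low in CRN in manganese, where SER3 was not. SER33 fell by 1.85 ± 0.23 in manganese in CRN (adjusted p = 3.77e-06), was higher by 1.54 ± 0.22 in CRN/PPN1 than in CRN in manganese (adjusted p = 0.000125) and had an interaction of 1.69 ± 0.31 (adjusted p = 0.000840). The value of SER3 in manganese in CRN was 0.40 ± 0.21 (adjusted p = 0.0993), and it was called in no comparison. SER1, phosphoserine aminotransferase, fell by 1.66 in manganese in CRN and was higher by 1.38 in CRN/PPN1 than in CRN in manganese. Its other strand held 24.3% and 18.9% of SER1 reads in CRN in manganese, against 0.353% and 1.52% in CRN in control medium. Scaled to the library total, SER33 was −0.34 and SER1 −0.17 in manganese in CRN, and neither was called.

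The ratio of SER33 to SER3 was 0.793 and 1.12 in CRN/PPN1 with manganese, 0.967 and 1.02 in CRN/PPN1 controls, 0.235 and 0.402 in CRN with manganese, and 1.71 and 1.25 in CRN controls. CRN in manganese was below all other groups. SER3 is known to be repressed by transcription of SRG1, a noncoding RNA that runs across the SER3 promoter and overlaps SER3 on the same strand, so that reads in the overlap may be assigned to either or left out. SRG1 had 114 and 129 CPM in CRN/PPN1 with manganese, 532 and 654 CPM in CRN/PPN1 controls, 33.7 and 40.1 CPM in CRN with manganese, and 492 and 406 CPM in CRN controls. It was low in manganese in both strains and lowest in CRN. SRG1 fell by 3.60 ± 0.22 in manganese in CRN and by 2.29 ± 0.21 in CRN/PPN1 (adjusted p = 3.17e-09 and 2.06e-06). Genes in the lowest quintile of coding lengths had medians of −2.29 and −1.21 in these comparisons. SRG1 has no coding length, so removal of the length trend did not adjust it. The part of RNA length in its fall, and any link of that fall to SER3, was not tested.

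GCN4 itself (YEL009C, coding region chrV:138918-139763 on the minus strand of R64) was called in no comparison. It had 710 and 868 CPM in CRN/PPN1 with manganese, 732 and 738 CPM in CRN/PPN1 controls, 662 and 733 CPM in CRN with manganese, and 891 and 998 CPM in CRN controls. CRN in control medium had the highest libraries and the other 3 groups overlapped. The value was 0.10 ± 0.20 in manganese in CRN/PPN1 (adjusted p = 0.716), −0.44 ± 0.20 in manganese in CRN (adjusted p = 0.0663), −0.36 ± 0.20 between the strains in control medium (adjusted p = 0.256) and 0.18 ± 0.20 between the strains in manganese (adjusted p = 0.530). The interaction was 0.54 ± 0.28 (adjusted p = 0.160). Per kb of coding length, GCN4 had the highest mean level of the 46 in CRN/PPN1 in control medium (869 CPM per kb), in CRN in manganese (824) and in CRN in control medium (1117), and was next to ILV5 (1074) in CRN/PPN1 in manganese, at 932. The median of the 46 was 148 CPM per kb in CRN/PPN1 with manganese, 130 in CRN/PPN1 controls, 66.4 in CRN with manganese and 133 in CRN controls. The lowest were TRP1 in CRN/PPN1 in manganese (19.1), LYS2 in CRN/PPN1 in control medium (20.5), LEU9 in CRN in manganese (21.7) and LYS2 in CRN in control medium (22.4).

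Genes with the TGACTCA motif and genes without it had overlapping ranges of values in every comparison. Between the strains in manganese, the 24 genes with the motif had a median of 1.01 and 12 calls up, and the 22 without it had a median of 0.86 and 8 calls up. In manganese in CRN, 7 of the 24 fell (median −0.25) and 8 of the 22 (median −0.55). In manganese in CRN/PPN1 the medians were 0.32 with the motif and 0.08 without, between the strains in control medium 0.14 and 0.03, and for the interaction 0.83 and 0.94 with 9 calls up in each. The motif was chosen as the known Gcn4 site, and the difference between these subsets was not tested.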

How the data were processed

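RNA was sequenced as single-end reads from 8 yeast cultures. The authors trimmed reads with Trimmomatic 0.36, mapped and counted them with STAR 2.5.3a against the Ensembl R64 annotation, and did not pool replicates. Reads that map to several places are not counted by this tool. The deposited tables hold raw counts of 7126 genes per library, on either strand and on each strand. The kit named in the methods does not mark strand, yet 90.7% to 93.3% of the strand-assigned counts were on the column opposite to the read, and the table for all libraries equals that column in 57008 of 57008 values, so it was used throughout. Its 4 summary lines that name no gene held 25.8% to 34.6% of reads and were left out, and 0 columns of other samples were present.

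The filter on low counts asked for 2 CPM or more in 4 or more libraries and left 5778 genes. With R 4.3.3 and edgeR 4.0.16 a model of the 4 groups was fitted to all libraries after TMM normalization, and each comparison was a contrast of it. The quasi-likelihood F test was two-sided with Benjamini-Hochberg adjustment over all tested genes, and SEs were derived from F. The common biological coefficient of variation was 0.180. Replicates of a group differed by more than sampling noise (10.0 to 18.0 chi-square per gene). On data simulated for manganese in CRN with 5762 genes, 198 of 200 genes changed by a log2 of 2 were called (99%), with 3 others. The simulation gave every gene the same spread and held no shift with coding length or in the scaling of libraries. It therefore does not give the recovery of smaller changes, or the rate of false calls, in these data.

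Coding lengths, neighbours and promoters came from RefSeq R64, matched by identifier for 5531 of the tested genes. The members and lists were chosen with earlier results of these data known. Values in every library are given for GCN4, HIS3, LEU2, TRP1, both genes of 5 isozyme pairs, and per comparison the 3 called genes that rose most and the 3 that fell most, at a mean of at least 100 normalized counts. ILV3, HIS4, LEU1 and other genes with values were named to account for each pathway. Alternatives were DESeq2 1.42.0, scaling to the library total, no filter on low counts, a replicate block, removal of the length trend, both together, counts on either strand, no limit on fold change, and leaving out each library.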

Additional observations from a re-analysis of the deposited data

Results flagged for a closer look

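The effect of manganese differed between the strains, by the test of the difference itself, for 18 of the 46 genes, and in all of them the log2 effect in CRN/PPN1 was above that in CRN. The interaction values were 2.36 for ARG1, 2.08 for HIS1 and 1.05 for HIS5, 1.56 for LEU9, 1.08 for ILV1, 1.24 for ILV3 and 1.06 for BAT1, and 1.38 for LYS9, 1.13 for LYS20 and 1.42 for LYS21. They were 1.48 for ARO4 and 1.24 for ARO2, 1.58 for HOM2, 1.11 for HOM3, 1.14 for HOM6 and 1.05 for THR1, and 1.13 for SER1 and 1.69 for SER33. Manganese cultures were grown for 16 h in CRN/PPN1 and 40 h in CRN, and time of growth and strain cannot be told apart in these values. Scaled to the library total, only ARG1 and HIS1 kept the call. With counts on either strand, ILV1 (0.95), SER1 (0.85) and BAT1 (1.10, by its adjusted p) lost the call, while LEU1 and ILV2 gained it. Leaving out a library ended the call of 7 of the 18 in some case. BAT1 was not called without any one of 5 of the 8 libraries, at 0.60 to 1.17 (0.60 without CRN/PPN1 manganese library 1), and THR1 without any one of 4, at 0.82 to 0.99. HOM3 was lost without any one of 3 libraries and was 0.71 without CRN control library 2. HIS5 was lost without any one of 3 libraries, at 0.87 to 0.94, and ILV1 without either of 2, at 0.89 and 0.96. Without CRN control library 2, ILV3 and LYS9 were 0.93 and not called.

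The share of a gene's reads that lay on its other strand, which the comparisons do not use, was above that of every control library in both CRN manganese libraries, and at least 5% there, for 6 of the 46 genes, of which 4 fell in manganese in CRN. Their mean share in CRN in manganese was 34.0% for ARG1, 26.5% for HIS1, 21.6% for SER1, 12.0% for ILV1, 8.74% for LYS2 and 7.56% for TRP4. The rule was not applied to all tested genes, so it is not known whether 6 of 46 is more than usual. Over all genes, the strand used held 93.3% and 93.0% of strand-assigned counts in CRN with manganese, and 91.2% and 91.3% in CRN controls. The shares of LYS2 and TRP4 are thus close to that of all counts together. In counts, the other strand of ARG1 had 26 and 11 in CRN/PPN1 with manganese, 13 and 20 in CRN/PPN1 controls, 169 and 186 in CRN with manganese, and 4 and 1 in CRN controls. The other strand of HIS1 had 31 and 29 counts in CRN/PPN1 with manganese, 9 and 18 in CRN/PPN1 controls, 95 and 134 in CRN with manganese, and 0 and 2 in CRN controls. With counts on either strand, ARG1, HIS1 and SER1 were still called down in manganese in CRN, and ILV1 was not, at −0.83. These differences in share were not tested.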

How the results depend on the processing

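The counts of called genes moved as follows, and alternatives not named left a count as it was. For manganese in CRN, 15 genes were called down, and this was 16 with DESeq2, 22 without the limit on fold change, 2 scaled to the library total, 20 with the length trend removed (with or without the replicate block) and 13 to 16 when a library was left out. There 0 were called up, against 24 scaled to the library total, 1 without that limit, and 0 to 1 when a library was left out (1 without CRN manganese library 2). For manganese in CRN/PPN1, 1 was called up, against 18 scaled to the library total, 2 with counts on either strand, 13 without the limit, and 1 to 3 with a library left out (3 without CRN/PPN1 control library 1). The 2 called down became 1 with DESeq2, 0 scaled to the library total, 1 with the length trend removed, 1 with the replicate block and the length trend removed, 1 on either strand, 6 without the limit and 1 to 2 with a library left out, where TRP1 was the gene lost in each case but scaling, which also lost LEU9, and either strand, which lost LEU9. Between the strains in control medium, 1 up became 4 scaled to the library total, 4 without the limit and 0 to 1 with a library left out (0 without CRN/PPN1 control library 1). Between the strains in manganese, 20 up became 21 with DESeq2, 10 scaled to the library total, 36 without the limit, 23 with the length trend removed (with or without the block) and 19 to 22 with a library left out. The interaction, 18 up, became 20 with DESeq2, 19 without the filter on low counts, 17 with counts on either strand, 23 without the limit, 2 scaled to the library total, where 3 were down, 24 with the length trend removed (with or without the block) and 13 to 20 with a library left out, and 1 was down with the replicate block and the length trend removed. Without the limit, 31.2% of all tested genes were called down and 32.6% up for manganese in CRN. Likewise 17.7% were called up between the strains in manganese and 17.4% in the interaction. With DESeq2, 25.1% of all tested genes were called down for manganese in CRN. Called up with it were 10.8% between the strains in manganese and 16.1% in the interaction. Between the strains in manganese, HIS5 (0.87) lost its call without CRN/PPN1 manganese library 2, LEU1 (0.96) and LYS20 (0.98) without CRN/PPN1 manganese library 1, and THR4 without that library (0.97) or CRN manganese library 2 (0.95), and ILV1 lost its call for manganese in CRN without CRN manganese library 2 (−0.97). Scaling to the library total turned the sign for manganese in CRN of ARG3 (1.18), ARG4 (1.49), HIS3 (0.45), HIS4 (0.010), HIS5 (0.095), LEU1 (1.28), LEU2 (1.08), LEU4 (1.37), ILV1 (0.45), ILV2 (1.25), ILV6 (1.38), BAT1 (1.31), BAT2 (1.47), LYS9 (0.17), LYS20 (1.20), LYS21 (0.26), TRP1 (1.41), TRP2 (1.42), ARO3 (1.37), THR1 (1.14) and GCN4 (1.04), because that scaling adds about the same amount to every gene and moved the median of all genes to 1.57. HIS3 also turned, to 0.070, with the length trend removed, alone and together with the replicate block. Replicate numbers are shared across groups in the labels without a stated pairing. The differences between replicates 1 and 2 correlated between groups at 0.032 to 0.22 over genes, and a fit with the replicate block changed none of 230 calls, with 15 down in CRN in manganese and 20 up between the strains in manganese. Where a library was left out, the remaining library of its group is assumed to vary like the others. With 30 to 134 counts per library, TRP1 is limited by depth. Except where stated, causes were not tested.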

Other observations

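Of 26 further genes of amino acid synthesis and nitrogen entry, listed from knowledge of the pathways, 7 were higher and 1 lower in CRN/PPN1 than in CRN in manganese, with a median log2 fold change of 0.56 against −0.01 over all tested genes, of which 10.4% were called up and 7.37% down. PHA2, prephenate dehydratase of the phenylalanine branch, had 41.8 and 41.4 CPM in CRN/PPN1 in manganese against 13.8 and 12.0 CPM in CRN in manganese, a rise of 1.69 ± 0.29. In manganese in CRN 1 of the 26 rose and 8 fell (median −0.70), where 24.7% and 24.0% of all tested genes were called, and in manganese in CRN/PPN1 3 rose and 2 fell (median 0.02), where 10.1% and 15.1% were. Between the strains in control medium 0 were called up and 1 down, with 4.45% of all tested genes in each direction. The interaction was called up for 7 and down for 2, against 15.0% and 11.6% of all tested genes.

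The paralogous NADP-dependent glutamate dehydrogenases, which take up ammonia into glutamate, were called in opposite directions between the strains in manganese. GDH1, the main enzyme on glucose, had 547 and 410 CPM in CRN/PPN1 in manganese and 163 and 172 CPM in CRN in manganese, higher by 1.52 ± 0.19 (edgeR adjusted p = 5.27e-05). GDH3 had 17.2 and 23.7 CPM in CRN/PPN1 in manganese and 50.8 and 71.8 CPM in CRN in manganese, and fell by 1.59 ± 0.31 (adjusted p = 0.00139). GDH3 rose by 2.30 in manganese in CRN, and GDH1 by 1.12 in manganese in CRN/PPN1. GLN1, glutamine synthetase, had 1534 and 1572 CPM in CRN/PPN1 in manganese and 671 CPM in both CRN/PPN1 control libraries, and rose by 1.21 ± 0.20. The coding sequences of GDH1 and GDH3 are identical at 77.4% of aligned bases.

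Of 10 regulators of these pathways, 2 rose in manganese in CRN and 1 in CRN/PPN1, where 24.7% and 10.1% of all tested genes rose, and 0 of 10 were called in either strain comparison or in the interaction. ARG80, an MCM1-like regulator of arginine genes, had 18.4 and 7.56 CPM in CRN/PPN1 with manganese, 4.49 and 2.18 CPM in CRN/PPN1 controls, 38.0 and 19.0 CPM in CRN with manganese, and 5.58 and 7.30 CPM in CRN controls. It rose by 2.13 ± 0.58 in manganese in CRN and by 1.94 ± 0.63 in CRN/PPN1, with replicates far apart. ARG81, its zinc cluster partner, rose by 1.39 ± 0.29 in manganese in CRN.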
